A study of Homo sapiens with 5 samples.

Results

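A set of 10 genes of the hypoxia response and of glycolysis was followed in MCF12A, an established line of breast epithelial cells that form no tumours: BNIP3, ADM, CA9, VEGFA, LDHA, PGK1, HK2, PFKFB3, PFKFB4 and NDRG1. They were taken by name, as a set known from other systems, and the set was chosen with earlier results of these data known. Of these, 9 had a probe with exactly 1 symbol in both deposited tables, out of 17651 genes measured in both. CA9, which encodes a carbonic anhydrase of the cell surface, had no such probe in either table, so its expression is not analysed here. Each of the other 9 had 1 such probe in each table, and its intensity lay over the floor of its table on every array.

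The arrays were Affymetrix human Gene ST arrays of total RNA, 1 for each of 5 groups. The first table holds cells kept for 4 weeks in 2.5% ethanol, cells kept for 4 weeks in 1% acetaldehyde, which is the first oxidation product of ethanol, and untreated control cells. The second holds a clone picked from soft agar, in which cells must grow unattached, after exposure to ethanol, together with its own control. The ethanol of the clone is labelled as 2.5% for 4 weeks on the sample but as 2.5 mM in the design text, and its control is labelled as unexposed yet carries the tag for soft agar selection. All groups are the same line, grown as monolayers in DMEM/F12 with horse serum, epidermal growth factor, hydrocortisone, insulin and cholera toxin, and the clone is 1 clone. The labels describe no change of oxygen supply.

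With 1 array in each group the spread between cultures is unknown and nothing was tested. Every difference below is a comparison of single arrays, and the number of arrays limits its precision. A gene was counted where the brighter array reached the floor, which is the median intensity of its table (70.2 in the first and 92.0 in the second), and where the arrays differed by at least 2-fold. The tables belong to different array designs and were treated as normalised separately, so no level is compared across them. Array medians lay between 69.98 and 70.6 in the first table and were 89.9 for the clone and 94.0 for its control. Equal values, within 1e-06 on the log2 scale, were shared by ethanol and control in 43.9% of probes and by acetaldehyde and control in 48.2%, but by the clone and the array set against it in 1.02%. Log2 differences across genes past the floor had a standard deviation of 0.50 in ethanol, 0.25 in acetaldehyde and 0.97 in the clone.

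As background, cells short of oxygen stabilise the alpha subunits of hypoxia-inducible factor (HIF), which pair with ARNT and bind short DNA elements near their target genes. In normal oxygen the prolyl hydroxylases of the EGLN family mark HIF alpha for VHL, which sends it for degradation, so that HIF is set largely at the protein level. Its targets include most enzymes of glycolysis, the conversion of glucose to pyruvate and lactate, as well as secreted vascular signals and genes that remove mitochondria. Many of these genes are also driven by other inputs, among them growth factors and MYC for glycolytic enzymes.

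The core of the element bound by HIF reads ACGTG or GCGTG, and windows around RefSeq transcription starts were searched for both motifs on both strands, for 7 of the measured members (all but VEGFA and NDRG1) and for CA9. Each window runs from 250 bases before the start to 50 bases from it, in assembly GRCh38.p14. The stretches below are those of the 4 members that differed by at least 2-fold in the clone, and of HK2 as a member of the same pathway whose arrays lay close together. They are written 5′ to 3′ along the gene with every match in capitals. The letters CACGTG read as ACGTG on both strands and count as 2 matches. BNIP3 lies at chr10:131981874-131982173 on the minus strand. LDHA (chr11:18394313-18394612), PGK1 (chrX:78103998-78104297), ADM (chr11:10304823-10305122) and HK2 (chr2:74833877-74834176) are on the plus strand, and for LDHA and HK2 the more upstream of 2 windows is shown.
BNIP3: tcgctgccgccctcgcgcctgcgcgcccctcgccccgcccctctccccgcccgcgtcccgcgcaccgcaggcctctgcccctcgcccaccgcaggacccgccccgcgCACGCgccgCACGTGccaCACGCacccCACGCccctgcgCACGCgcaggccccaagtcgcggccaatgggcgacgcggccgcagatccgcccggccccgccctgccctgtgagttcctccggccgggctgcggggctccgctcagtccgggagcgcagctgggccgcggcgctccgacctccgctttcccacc
LDHA: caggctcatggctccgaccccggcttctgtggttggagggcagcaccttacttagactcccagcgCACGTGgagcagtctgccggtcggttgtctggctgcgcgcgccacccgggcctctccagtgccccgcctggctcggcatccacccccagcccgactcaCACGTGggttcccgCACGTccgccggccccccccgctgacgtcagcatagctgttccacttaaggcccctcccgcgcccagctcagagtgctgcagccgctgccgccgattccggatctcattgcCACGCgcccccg
PGK1: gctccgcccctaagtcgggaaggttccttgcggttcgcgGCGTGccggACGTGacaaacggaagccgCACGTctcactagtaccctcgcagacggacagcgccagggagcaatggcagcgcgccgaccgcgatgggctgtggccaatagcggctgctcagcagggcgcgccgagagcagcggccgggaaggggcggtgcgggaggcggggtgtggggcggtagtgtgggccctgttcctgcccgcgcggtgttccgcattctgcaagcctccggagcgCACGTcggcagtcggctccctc
ADM: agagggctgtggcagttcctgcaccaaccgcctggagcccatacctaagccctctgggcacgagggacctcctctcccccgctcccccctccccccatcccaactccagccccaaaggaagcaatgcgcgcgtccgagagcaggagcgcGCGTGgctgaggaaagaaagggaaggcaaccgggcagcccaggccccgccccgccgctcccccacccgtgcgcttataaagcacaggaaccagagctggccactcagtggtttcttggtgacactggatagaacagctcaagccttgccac
HK2: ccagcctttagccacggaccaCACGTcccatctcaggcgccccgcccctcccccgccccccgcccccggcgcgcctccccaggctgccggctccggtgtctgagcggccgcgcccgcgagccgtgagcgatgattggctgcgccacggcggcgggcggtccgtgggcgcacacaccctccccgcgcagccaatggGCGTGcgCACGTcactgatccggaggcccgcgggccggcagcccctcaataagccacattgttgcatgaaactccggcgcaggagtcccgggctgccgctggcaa

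BNIP3 held 6 matches in 5 stretches, the first of them 143 bases before the start, with the CACGTG beginning 134 bases before it. LDHA held 6 matches in 4 stretches, among them CACGTG at 185 and at 87 bases before the start. PGK1 held 4 matches, 3 of them beginning between 211 and 183 bases before the start. HK2 held 3 matches in the window shown and 6 in its other window, and the other window of LDHA held 1. ADM held 1 match, the GCGTG that begins 101 bases before its start. The 8 genes had 11 windows in all, and each of these held at least 1 match. VEGFA had no window in the reference used. NDRG1 was left out before the search, so these counts do not cover it. Such letters are common in promoters: 48.4% of all 35116 windows held a match, 21.4% held ACGTG and 4.40% held 4 or more matches. A match describes the sequence and is not a binding site shown to be in use in these cells.

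Among the glycolytic members LDHA and PGK1, which act late in the pathway, were higher in the clone by over 2-fold, and no glycolytic member reached 2-fold in ethanol or acetaldehyde. LDHA encodes the lactate dehydrogenase subunit that converts pyruvate to lactate. Its intensity was 7259.8 in the clone against 3168 in its control, and 4571 in ethanol and 4551 in acetaldehyde against 4304 in untreated cells. The clone was thus 2.29-fold higher than its control, while the first table's 3 arrays lay within a narrow band, with log2 differences of 0.09 for ethanol and 0.08 for acetaldehyde. PGK1 encodes phosphoglycerate kinase, an enzyme that makes ATP in the lower part of glycolysis. It had 2458 in the clone against 891 in its control, a 2.76-fold higher level, and 3683 in ethanol and 3609 in acetaldehyde against 3249.8 in untreated cells. Both treated arrays were above the control array for PGK1, by log2 differences of 0.18 and 0.15. In the clone 11.1% of genes past the floor differed upward by at least as much as LDHA, and 7.44% by at least as much as PGK1.

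HK2, PFKFB3 and PFKFB4 act at the entry and the control point of glycolysis, and their largest difference in any comparison was 1.09-fold, for PFKFB4 in the clone. HK2 is the hexokinase that traps glucose in the cell as glucose phosphate. Its value was 309.7 on all 3 arrays of the first table, equal within the tolerance given above, and 220.1 in the clone against 215 in its control. PFKFB3 and PFKFB4 make and break down fructose 2,6-bisphosphate, the activator of phosphofructokinase. PFKFB3 had 352 in ethanol and 361 in acetaldehyde against 361 in untreated cells, the last pair being equal, and 351 in the clone against 372 in its control. PFKFB4 lay close to the floor, with 99.3 in ethanol and in acetaldehyde against 99.1 in untreated cells, and 136 in the clone against 125 in its control. Across the alternatives tried the log2 difference of the clone ran between -0.06 and 0.20 for HK2 and between -0.21 and 0.09 for PFKFB3, so that neither has a settled direction, and between 0.12 and 0.29 for PFKFB4.

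BNIP3 had the largest difference upward among the 9 measured members in each of the 3 comparisons with a control. It encodes a protein of the outer mitochondrial membrane that takes part in the removal of mitochondria by autophagy. It had 1999 in ethanol and 1882 in acetaldehyde against 1407 in untreated cells, and 2962 in the clone against 627 in its control. Both treated cultures were above their shared control, 1.42-fold for ethanol and 1.34-fold for acetaldehyde, which is under the 2-fold used here. The clone was 4.72-fold higher than its control, and 287 of 12262 genes past the floor, or 2.34%, differed upward by at least as much. Its relative BNIP3L, which has the same role and is known for clearing mitochondria from maturing red cells, had 2748 in the clone against 686 in its control, 4.01-fold higher. BNIP3L had 1526 in ethanol and 1269 in acetaldehyde against 826 in untreated cells, log2 differences of 0.89 and 0.62. RefSeq names 46 pseudogenes after BNIP3, 6 after LDHA, 2 after PGK1 and 1 after HK2, and whether their transcripts add to these probes was not tested.

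Neither of the secreted members was higher by 2-fold in any comparison. ADM encodes adrenomedullin, a vasodilator peptide. It had 382 in the clone against 3660.4 in its control, the largest difference of any member, 9.58-fold lower in the clone. Of 12262 genes past the floor 81, or 0.661%, differed downward by at least as much. In the first table ADM had 158 in ethanol and 187 in acetaldehyde against 187 in untreated cells, the last pair being equal. VEGFA encodes the growth factor for blood vessels that is the textbook target of HIF. It had 282 in ethanol and 435 in acetaldehyde against 549 in untreated cells, and 374 in the clone against 347 in its control. The ethanol array was 1.94-fold lower than control, just short of 2-fold, and the acetaldehyde array lay between the other 2 arrays. Of genes past the floor, 2.58% differed downward by at least as much as VEGFA in ethanol and 1.83% in acetaldehyde. The clone and its control differed by 1.08-fold for VEGFA, with log2 differences from -0.02 to 0.27 across the alternatives.

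NDRG1 encodes a cytoplasmic protein induced by hypoxia and by metal chelation and linked to epithelial differentiation. It had 1769.9 in ethanol and 2646 in acetaldehyde against 2342 in untreated cells, and 3470.5 in the clone against 5491 in its control. It was lower in ethanol and in the clone, 1.32-fold and 1.58-fold, and 1.13-fold higher in acetaldehyde, so that no difference reached 2-fold.

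**Figure D1:**
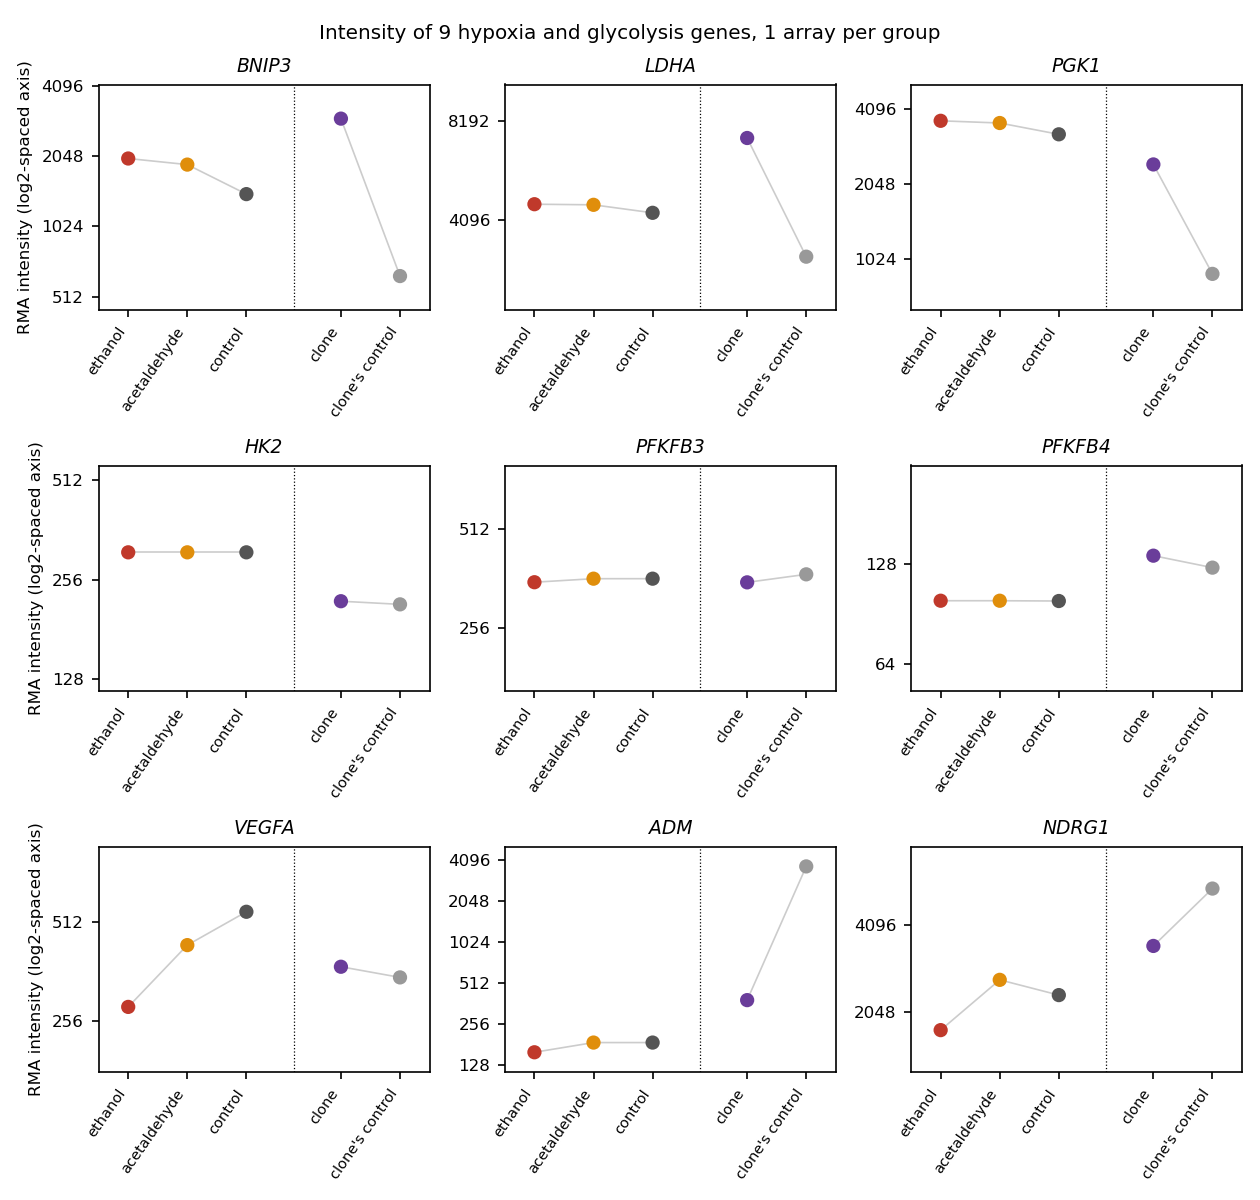
RMA intensity of the 9 measured members on each array, 1 point per array with 1 array per group, on a log2-spaced axis whose range differs between panels. The dotted line separates the 2 tables, between which levels are not compared, and grey lines join arrays of 1 table. BNIP3, LDHA and PGK1 stand higher in the clone than in its control and ADM lower, while HK2, PFKFB3 and PFKFB4 are nearly level within each table.

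Counted over the 9 measured members, all of them past the floor, the clone had 3 that were at least 2-fold higher than its control (BNIP3, PGK1 and LDHA) and 1 at least 2-fold lower (ADM). Differences of this size were common in the clone, where 14.7% of all 12262 genes past the floor passed 2-fold upward and 5.83% downward. As deposited, the median log2 difference of the members was 0.11, against -0.02 over all genes. When the arrays were quantile-normalised again the members' median was -0.02, and that of all genes was not computed. The members thus spread widely, from -3.26 for ADM to 2.24 for BNIP3, around a median close to that of all genes. Over all probes the clone's median was -0.17, and relative to it BNIP3, PGK1 and LDHA had differences of 2.41, 1.63 and 1.36, ADM -3.09 and NDRG1 -0.50. At 1.5-fold NDRG1 joined ADM among the lower members, where 15.2% of all genes lay.

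In ethanol 0 of the 9 members reached 2-fold in either direction, where 2.63% of 11264 genes passed it upward and 2.44% downward. Their log2 differences ran from -0.96 for VEGFA to 0.51 for BNIP3, with a median of 0.00, as over all genes. At 1.5-fold VEGFA was lower, beside 5.11% of all genes. In acetaldehyde 0 of the 9 reached 2-fold, where 1.03% of 11194 genes were higher and 0.0536% lower by that much. The range was from -0.34 for VEGFA to 0.42 for BNIP3. Ethanol and acetaldehyde share their control array, so their values are only set side by side. ADM, HK2 and PFKFB3 were equal in acetaldehyde and control, as were 37.9% of all genes past the floor, and the cause of equal values was not tested.

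Acetaldehyde was also set against ethanol directly, at labelled doses that differ. None of the 9 members differed by 2-fold, where 1.85% of 11221 genes were higher and 0.526% lower in acetaldehyde by that much. The members furthest apart were VEGFA and NDRG1, both higher in acetaldehyde than in ethanol, with log2 differences of 0.62 and 0.58. At 1.5-fold VEGFA was the only member, beside 3.78% of all genes that were higher. BNIP3, LDHA and PGK1 were close on both arrays, with log2 differences of -0.09, -0.01 and -0.03.

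**Figure D2:**
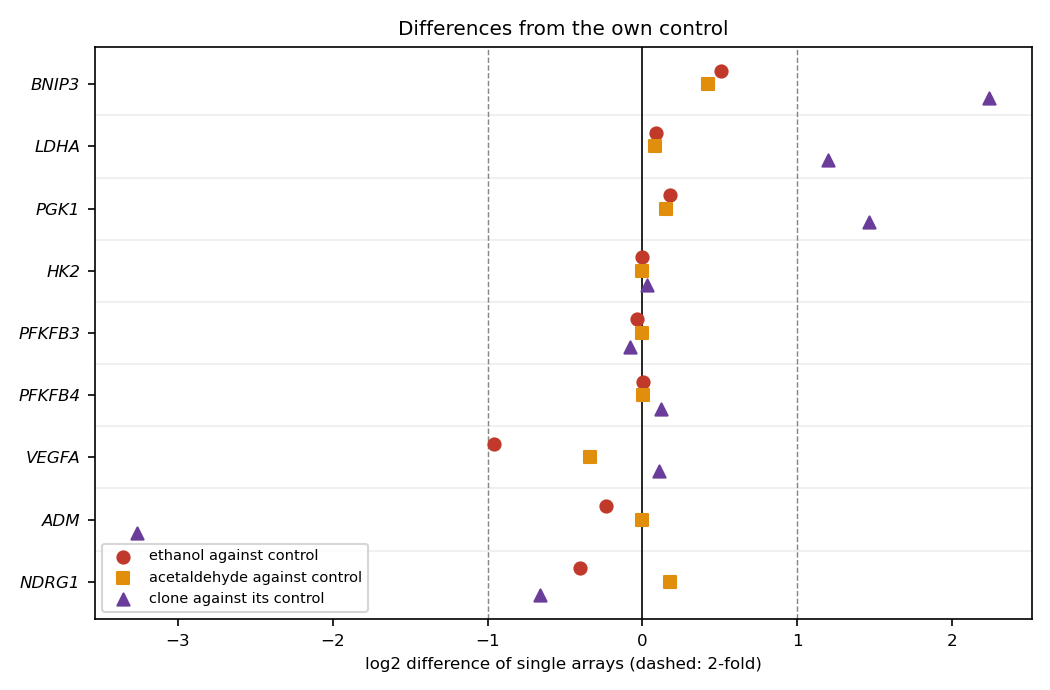
Log2 difference of each measured member from its own control, with circles for ethanol, squares for acetaldehyde and triangles for the clone, 1 array per group and no error bars. Dashed lines mark 2-fold. The clone's points reach from -3.26 for ADM to 2.24 for BNIP3, and every point of ethanol and acetaldehyde lies between the dashed lines.

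**Figure D3:**
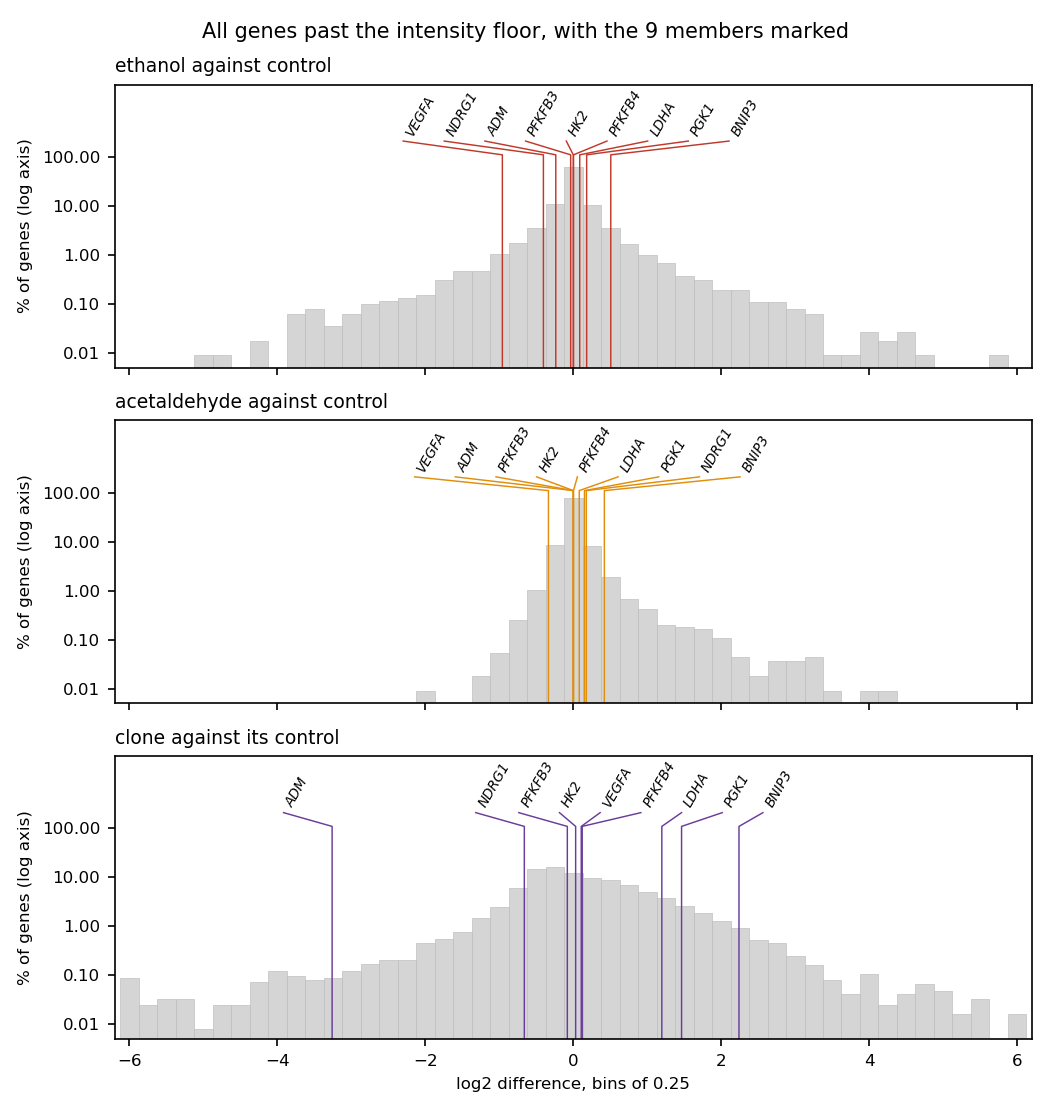
Share of all genes past the intensity floor by log2 difference, in bins of 0.25 with a log axis for the share, for ethanol, acetaldehyde and the clone, with coloured lines at the members. The bins at each end also hold the genes beyond them. The clone's distribution is the broadest, and ADM and BNIP3 lie towards its ends.

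The rest of the glycolytic pathway was described by a list of 14 further enzymes, of which 13 were measured and all past the floor. In the clone 3 of the 13 passed 2-fold upward and 0 downward, beside 14.7% and 5.83% of all genes past the floor. The median of the 13 was 0.38, or 0.55 relative to the clone's median over all probes. ENO2 and ENO1, enolases of lower glycolysis, were 2.61-fold and 2.13-fold higher in the clone, and PFKP, the platelet form of phosphofructokinase, was 2.30-fold higher. PKM, the pyruvate kinase gene, had 6195 in the clone against 3673 in its control, a log2 difference of 0.75, and ALDOC, an aldolase gene, was at the low end with -0.60. In ethanol 1 of the 13 reached 2-fold, ENO2, with 232 against 111 in untreated cells, 2.09-fold higher. The shares over all genes there were 2.63% higher and 2.44% lower. In acetaldehyde 0 of the 13 reached 2-fold, beside 1.03% of all genes higher and 0.0536% lower, and ENO2 was at 203, a log2 difference of 0.87. Medians were 0.07 in ethanol and 0.11 in acetaldehyde. In ethanol 11 of the 13 were above control by any amount, 2 were equal and 0 below. Over all genes past the floor 34.2% were above, 30.7% equal and 35.1% below. In acetaldehyde 13 of the 13 were above control, where 30.2% of all genes were above, 37.9% equal and 31.9% below. The smallest of the 13 log2 differences in acetaldehyde was 0.02, and all rest on single arrays. Shifts of that size also come from scaling: quantile normalisation moved HK2, equal as deposited, to -0.0245 in acetaldehyde. Counts by any amount were not recomputed under the alternatives.

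The genes that carry glucose in and steer pyruvate lay on both sides of control. SLC2A1 encodes GLUT1, the main glucose carrier of many epithelial cells. It had 934 in the clone against 5395 in its control, 5.78-fold lower, and 897 in ethanol and 1837 in acetaldehyde against 1875 in untreated cells, 2.09-fold lower in ethanol and with a log2 difference of -0.03 in acetaldehyde. PDK1 encodes a kinase that switches off pyruvate dehydrogenase. It had 541 in the clone against 141 in its control, 3.84-fold higher, and 749.6 in ethanol and 594 in acetaldehyde against 610.2 in untreated cells. PDK4, a kinase of the same family that responds to fatty acids, had 3305 in ethanol against 980.0 in untreated cells, 3.37-fold higher, and 3881 in the clone against 7096 in its control, a log2 difference of -0.87. MPC2, a subunit of the mitochondrial pyruvate carrier, was 2.58-fold lower in the clone. Of the 13 genes on this list 11 were measured, and 10 of them were past the floor in the clone comparison. There 1 was at least 2-fold higher and 2 lower, beside 14.7% and 5.83% of all genes past the floor. PDK3 also passed 2-fold upward by its measured ratio with centring or lowess. Its control array was under the floor, and as deposited it was at least 1.53-fold higher in the clone. In ethanol 1 of 11 was higher and 1 lower by 2-fold, beside 2.63% and 2.44% of all genes. In acetaldehyde 0 of 11 reached 2-fold, where 1.03% of all genes were higher and 0.0536% lower.

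Genes of oxygen sensing were measured at the level of RNA, which does not show how much HIF protein was present. HIF1A, the alpha subunit found in most tissues, had 3699 in ethanol and 2940.3 in acetaldehyde against 2499 in untreated cells, and 4742 in the clone against 2622 in its control. Its log2 differences were 0.57, 0.23 and 0.85 in that order. EPAS1, which encodes the related subunit HIF2 alpha, had 1346 in the clone against 2616 in its control, a difference of -0.96, and 1083 in ethanol and 1418 in acetaldehyde against 1481 in untreated cells. The 2 alpha subunit genes therefore differed in opposite directions in ethanol and in the clone. Neither reached 2-fold as deposited, but relative to the clone's median over all probes HIF1A did, at 1.02, as did VHL, at 1.10, and EPAS1 did so downward when the arrays were quantile-normalised again. VHL had a log2 difference of 0.94 in the clone and equal values on the first table's 3 arrays. ARNT, EGLN1 and EGLN3 had differences in the clone of 0.28, 0.21 and 0.58. In ethanol their differences were 0.16, 0.08 and -0.55, and in acetaldehyde 0.16, 0.04 and 0.34. HIF1AN, the asparagine hydroxylase that blunts HIF activity, was 2.10-fold higher in the clone, at 206 against 98.2 in its control, a value just over the floor. The log2 differences of HIF1AN were -0.34 in ethanol and -0.005 in acetaldehyde. CITED2, which encodes a protein that competes with HIF for its coactivators, had 6184 in the clone against 1043 in its control, 5.93-fold higher, and 1451 in ethanol and 743 in acetaldehyde against 404 in untreated cells. CITED2 was thus 3.59-fold higher in ethanol and had a log2 difference of 0.88 in acetaldehyde. Of 9 listed genes past the floor, 2 were at least 2-fold higher and 0 lower in the clone, 1 higher and 0 lower in ethanol, and 0 in either direction in acetaldehyde. Over all genes past the floor 14.7% were higher and 5.83% lower in the clone, and 2.63% and 2.44% in ethanol. In acetaldehyde these shares were 1.03% and 0.0536%.

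Other genes known to be induced by hypoxia also lay on both sides of control. Of 17 past the floor in the clone, 3 were at least 2-fold higher, namely BNIP3L, STC2 and LOX, and 1 lower, BHLHE40, around a median of 0.07. That is 17.6% higher and 5.88% lower, beside 14.7% and 5.83% of all genes past the floor. With quantile normalisation or lowess FAM162A, a gene of a mitochondrial protein, was a second lower gene, its deposited log2 difference being -0.90. BHLHE40, a transcriptional repressor gene, had 288 in the clone against 2506 in its control, 8.71-fold lower, close to the size of the ADM difference. STC2, a secreted glycoprotein gene, was at least 2.84-fold higher, its control array being under the floor. LOX, which encodes a collagen cross-linking enzyme, was 3.32-fold higher in the clone, 5.01-fold in ethanol and 4.05-fold in acetaldehyde. In ethanol ANGPTL4, a secreted lipase inhibitor gene, was also 2.05-fold higher. Thus 2 of 16 passed 2-fold upward and 0 downward, beside 2.63% and 2.44% of all genes, around a median of -0.07. In acetaldehyde LOX was the 1 gene of 16 past 2-fold, beside 1.03% of all genes upward and 0.0536% downward. DDIT4 and P4HA1, a stress gene and a collagen hydroxylase gene that respond to hypoxia in many cells, had differences in the clone of 0.07 and 0.06.

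Relatives and receptors of the members came last. PFKFB2, which makes the same metabolite as PFKFB3 and PFKFB4, was at least 2.77-fold lower in the clone, whose array was under the floor, and 2.31-fold lower in ethanol, while in acetaldehyde its log2 difference was -0.32. TIGAR, which encodes a phosphatase that lowers the same metabolite, was at least 2.24-fold higher in the clone. CA2, a cytosolic carbonic anhydrase gene, was at least 6.94-fold lower in the clone and 7.30-fold lower in ethanol, with 213 in ethanol and 1823 in acetaldehyde against 1555 in untreated cells. Of the VEGF receptors and coreceptors, NRP1 was 6.04-fold higher in the clone, at 633 against 105, and KDR at least 2.99-fold higher. NRP2 was 2.40-fold lower in ethanol and in the clone lay under the floor, at least 1.15-fold lower than its control. CALCRL, the adrenomedullin receptor, was under the floor on all 5 arrays. In the clone 3 of 15 genes of the list passed 2-fold upward (4 with centring) and 3 downward by measured ratio, PFKFB2, CA2 and NRP2. NRP2 passed 2-fold as deposited but not with centring, quantile normalisation or lowess. In ethanol 0 of 13 were higher and 3 lower, and in acetaldehyde 0 of 13 reached 2-fold. The shares of all genes past the floor that were higher and lower by 2-fold were 14.7% and 5.83% in the clone. They were 2.63% and 2.44% in ethanol, and 1.03% and 0.0536% in acetaldehyde.

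**Figure D4:**
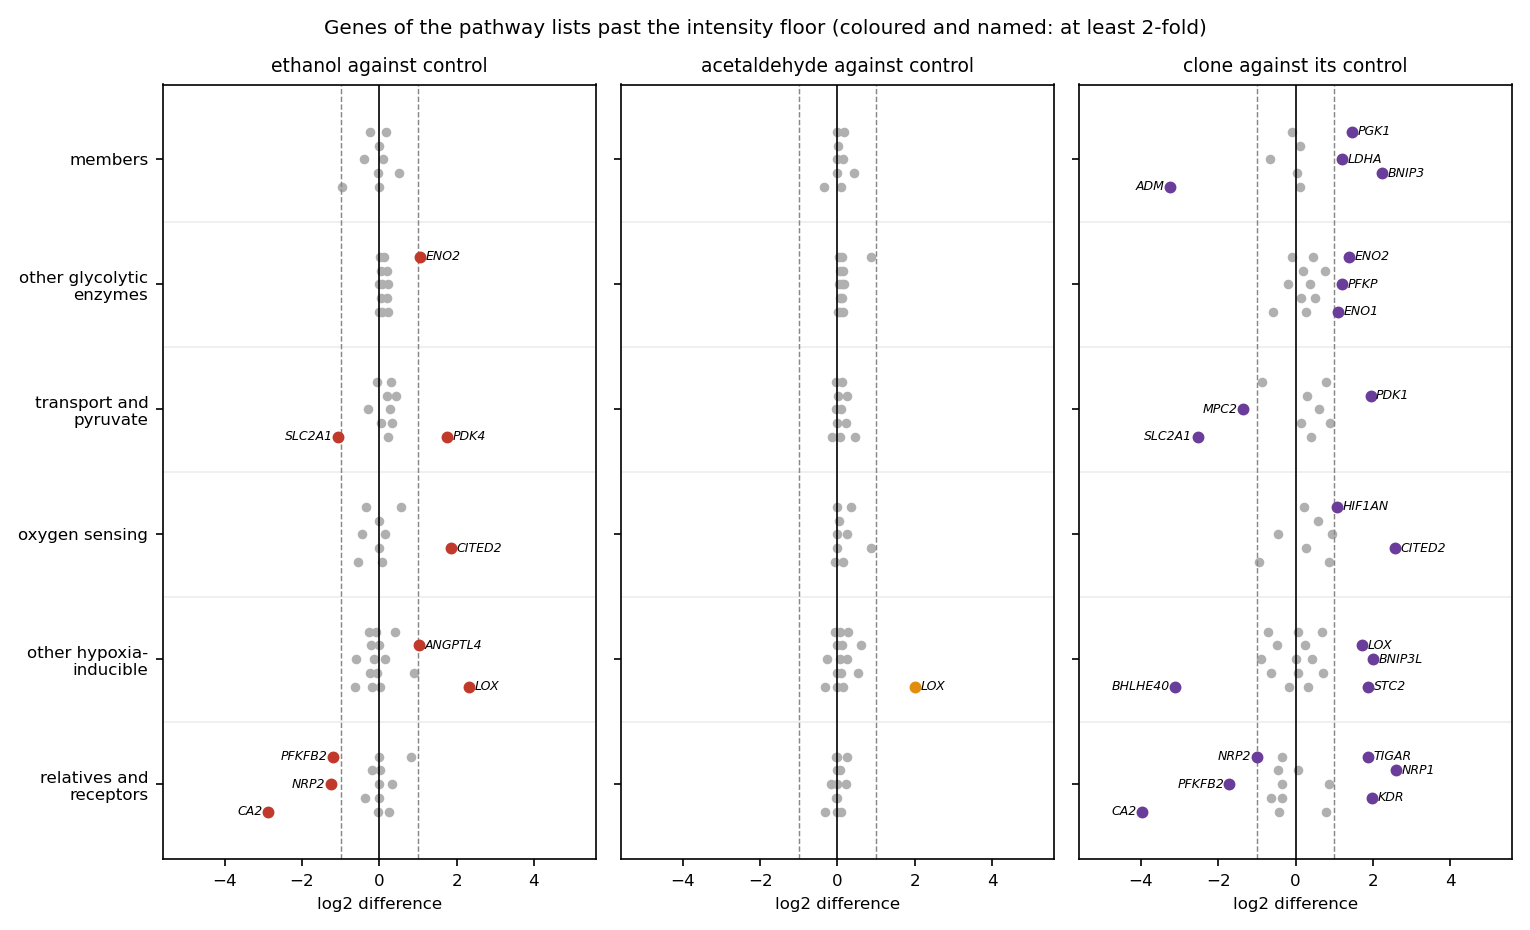
Log2 difference of each gene past the intensity floor, by list, in ethanol, acetaldehyde and the clone against the own control, 1 array per group. Genes at least 2-fold apart, marked by the dashed lines, are coloured and named by their measured ratio (NRP2 in the clone, under the floor, included), and the vertical scatter within a list has no meaning. The clone has named genes on both sides of 0, and acetaldehyde has LOX only.

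Markers of cell identity differed on the same arrays. Of 8 measured epithelial markers, 5 passed 2-fold downward in the clone and 0 upward, beside 5.83% and 14.7% of all genes past the floor. The summed intensity was 10561 in the clone against 25230.3 in its control. KRT8 and KRT18 had log2 differences of 0.06 and 0.20 in the clone, and KRT19 had -0.51. CDH1 and EPCAM were under the floor in the clone and over it on every other array. In ethanol 4 of the 8 were at least 2-fold lower and 1, KRT8, was 2.08-fold higher, beside 2.44% and 2.63% of all genes. The sums were 8796 in ethanol and 13452 in acetaldehyde against 12959 in untreated cells. Of 7 fibroblast markers COL1A1, COL3A1 and DCN passed 2-fold upward in the clone by measured ratio, beside 14.7% of all genes past the floor. DCN, under the floor in the clone's control, was at least 1.81-fold higher in the clone. COL1A2 and PDGFRB were lower in the clone, at 123 against 142 and 103 against 136, log2 differences of -0.20 and -0.41. The sum was 1684 in the clone against 811 in its control, and PDGFRA and LUM were under the floor on all 5 arrays. Of 4 adipocyte markers the sum was 2356 in ethanol, 321 in acetaldehyde and 205 in untreated cells, and 1216 in the clone against 320.0 in its control. FABP4 made up most of it in ethanol and in the clone, and PLIN1 was over the floor on all 5 arrays, with 122 in ethanol and 98.5 in acetaldehyde against 92.3 in untreated cells and 122 in the clone against 138 in its control, while ADIPOQ and LEP were under the floor on all 5 arrays. Of 4 leukocyte markers CD14 was over the floor on all 5 arrays, with 98.7 on each of the first table's 3 and 128 in the clone against 126 in its control, and PTPRC, CD3E and LYZ were under it on all 5. The endothelial markers PECAM1, VWF, CDH5 and TEK were under the floor on all 5 arrays, and KDR was over it in the clone only. The part of such shifts in the members' values was not tested, and in bulk RNA fewer cells of a type and less RNA per cell cannot be told apart.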

How the data were processed

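Gene expression in 5 MCF12A cultures was read from 2 deposited tables of probe intensity on a linear scale. Per the submitters' processing notes, the authors computed these intensities with RMA, which corrects background, quantile-normalises arrays and summarises the probes of a set; its version and the genome build are not given in the sources used here. The labels' protocols tie one array design to 1-week and another to 4-week exposures, which was not resolved for the clone.

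Log2 was taken, and probe names came from the platform annotation of each design: 19181 probes of the first table and 19460 of the second had exactly 1 symbol, out of 33297, and the rest were not named. The brightest probe stood for a gene. Members and lists were chosen with earlier results of these data known. Named genes were all members, list genes past 2-fold (up to 4 each way per list) and 7 oxygen-sensing genes. PKM, ALDOC, BNIP3L in the first table, PDK3, DDIT4, P4HA1, FAM162A and CALCRL were picked with their values in view. The calculations were tested on simulated data. Alternatives covered the floor, the fold, centring, quantile normalisation, lowess, the mean of probes and dim values raised to the floor. Python 3.11.15, pandas 2.3.3 and statsmodels 0.14.6 were used.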

Additional observations from a re-analysis of the deposited data

How the results depend on the processing

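Each count and median over the members was recomputed under 8 alternatives. With 1.5-fold in place of 2-fold, 1 member was lower in ethanol (VEGFA), 2 were lower in the clone (ADM and NDRG1) and 1 was higher in acetaldehyde than in ethanol (VEGFA). None of the other counts and medians of members moved by over 1.5 times or by over 1.2-fold, and BNIP3, PGK1, LDHA and ADM stayed past 2-fold in the clone under all 8. The members' median in the clone ran from -0.02 to 0.27, so its sign is not settled. The clone's log2 difference ran from 2.17 to 2.41 for BNIP3 and from -3.33 to -3.09 for ADM. Counts over all genes depended more on the threshold. At 1.5-fold, against 2-fold, 597 against 296 genes were higher and 576 against 275 lower in ethanol, 242 against 115 and 46 against 6 in acetaldehyde, 3144 against 1803 and 1867 against 715 in the clone, and 424 against 208 and 249 against 59 in acetaldehyde relative to ethanol. With the floor at the 75th percentile, 73 genes were higher in acetaldehyde than in control and 37 lower than in ethanol. With 1 array per group no replicate could be left out, and no paired analysis was possible because no group has a second array.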
